A study of Drosophila melanogaster with 2 samples.

Results

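The summits described here are the peaks of Adf1 binding in the fly embryo that lay at the starts of non-coding RNA genes and away from protein-coding ones. A summit, the point of highest enrichment in a peak, was counted as a member if it lay over 500 bp from every protein-coding transcription start site (TSS) and within 500 bp of the annotated 5' end of a non-coding RNA gene. Of the 4370 summits in the list called across both replicates, 1826 were distal, meaning over 500 bp from a protein-coding TSS. Of these, 132 were members, a share of 7.23% (Wilson 95% interval 6.13 to 8.51%), and the other 1694 distal summits served as the comparison. The members lay in 120 peak intervals and had 109 different genes as their nearest non-coding gene. A further 114 summits lay within 500 bp of a non-coding 5' end but also within 500 bp of a protein-coding TSS, and were not members.

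The study mapped Adf1 by chromatin immunoprecipitation and sequencing (ChIP-seq) in whole Drosophila melanogaster embryos of 0 to 24 h. The flies were transgenic and carried Adf1 fused to enhanced green fluorescent protein (Adf1-eGFP), which per the sample descriptions was precipitated with an antibody against the fluorescent protein (the antibody entry itself names Adf1), and the chromatin was sonicated to 200 to 800 bp. There were 2 biological replicates of 1 library each, all of this one genotype and age, so no genotypes or treatments were compared and no control library was analysed here. Whole embryos mix all cell types and a day of development, so a peak does not show in which cells or when the site was bound.

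Adf1 is a DNA-binding factor with a MADF domain, first described at the alcohol dehydrogenase gene Adh, and it binds GC-rich triplet repeats. Non-coding RNA genes are transcribed into RNAs that are not translated. Among them are long non-coding RNAs (lncRNAs), antisense RNAs that overlap another gene on the opposite strand, and small nuclear and small nucleolar RNAs. Some lncRNAs are primary transcripts of microRNAs, which are cut out of the transcript as hairpins and then repress messenger RNAs that match their seed.

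Of the 132 members, 16, including the strongest, lay at the starts of lncRNA genes that carry a microRNA hairpin, called host genes below. The mature microRNAs of these hosts are shown because they are what such a transcript is known to produce. Each is written 5' to 3' from the RefSeq annotation of Release 6 (dm6), in DNA letters, with the seed (bases 2 to 8) in capitals. mir-ban is bantam, which promotes growth and blocks cell death. mir-124 is a neuronal microRNA, mir-9a acts in sense organ specification, and mir-iab-4 lies in the bithorax complex and represses the Hox gene Ubx. The products of mir-279 and mir-996 share the seed GACTAGA and come from the same host.
mir-ban, 3p side, chr3L:642259-642281, plus strand: tGAGATCAttttgaaagctgatt
mir-124, 3p side, chr2L:17566426-17566448, plus strand: tAAGGCACgcggtgaatgccaag
mir-9a, 5p side, chr3L:19565140-19565162, plus strand: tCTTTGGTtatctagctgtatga
mir-279, 3p side, chr3R:29215651-29215672, plus strand: tGACTAGAtccacactcattaa
mir-996, 3p side, chr3R:29217244-29217265, plus strand: tGACTAGAtttcatgctcgtct
mir-275, 3p side, chr2L:7425853-7425875, plus strand: tCAGGTACctgaagtagcgcgcg
mir-iab-4, 5p side, chr3R:16856281-16856302, plus strand: aCGTATACtgaatgtatcctga
mir-10, 5p side, chr3R:6809553-6809574, minus strand: aCCCTGTAgatccgaatttgtt
mir-34, 5p side, chr3R:10100952-10100975, plus strand: tGGCAGTGtggttagctggttgtg

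The sequences from 50 bp before to 50 bp after the summit are given for 6 host genes, for the strongest microRNA member and for the 7SK gene, because they show how the triplet repeats were placed under these peaks. Capitals mark matches of GCNGCNG, the GC triplet, or of CGNCGNC, the CG triplet, on either strand, where N is any base and matches may overlap. The CG triplet was added after sequences of members had been seen.
lncRNA:CR43334 (host of mir-ban), chr3L:628216-628316, plus strand: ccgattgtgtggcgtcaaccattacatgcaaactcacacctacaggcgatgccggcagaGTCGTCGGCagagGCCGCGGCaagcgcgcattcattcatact
lncRNA:CR45919 (host of mir-124), chr2L:17560580-17560680, plus strand: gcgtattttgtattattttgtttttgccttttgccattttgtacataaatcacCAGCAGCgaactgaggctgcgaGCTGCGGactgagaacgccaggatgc
lncRNA:CR45916 (host of mir-9a), stronger summit, chr3L:19562421-19562521, plus strand: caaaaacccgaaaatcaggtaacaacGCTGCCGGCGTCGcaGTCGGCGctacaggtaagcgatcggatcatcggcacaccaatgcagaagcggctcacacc
lncRNA:CR43857 (host of mir-275), chr2L:7423663-7423763, plus strand: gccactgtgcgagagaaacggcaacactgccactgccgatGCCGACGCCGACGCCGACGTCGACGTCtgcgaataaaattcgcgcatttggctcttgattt
lncRNA:iab4 (host of mir-iab-4), chr3R:16850077-16850177, plus strand: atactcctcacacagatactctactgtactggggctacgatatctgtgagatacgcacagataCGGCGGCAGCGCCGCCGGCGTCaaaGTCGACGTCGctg
lncRNA:CR31044 (host of mir-279 and mir-996), chr3R:29214385-29214485, plus strand: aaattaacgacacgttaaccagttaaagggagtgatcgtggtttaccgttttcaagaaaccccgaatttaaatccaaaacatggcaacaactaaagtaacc
mir-4962, chrX:3777417-3777517, plus strand: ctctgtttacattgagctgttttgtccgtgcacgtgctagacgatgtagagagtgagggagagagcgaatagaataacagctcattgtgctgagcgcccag
snRNA:7SKa, chr3R:7474761-7474861, plus strand: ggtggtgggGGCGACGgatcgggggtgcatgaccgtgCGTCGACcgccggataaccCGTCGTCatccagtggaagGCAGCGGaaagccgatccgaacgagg
The windows differed widely. At iab4 there were 4 GC and 9 CG triplet matches, and at CR43857 there were 14 CG and 0 GC matches. At CR31044 and at mir-4962, which had the 4th highest signal of all members, neither form was found. The windows shown are a selection. Either form was found in 53.0% of all members and in 11 of the 16 host members. The members at the hosts CR43651, CR46004 and CR43459, not shown, had neither form.

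Distal summits were more closely spaced near non-coding 5' ends than elsewhere. The sequence within 500 bp of such an end made up 1.92% of all distal sequence (2.35 of 122 Mb) and held 56.1 summits per Mb, against 14.1 per Mb in the rest, a ratio of 3.97. Density was highest in the bin 100 to 200 bp upstream, with 23 summits and 98.8 per Mb. It was 66.0 per Mb over the 500 bp upstream and 47.0 per Mb over the 500 bp downstream. Beyond the limit it was lower but still above the distal mean: 32.6 per Mb at 500 to 1000 bp upstream, 43.3 per Mb at 500 to 1000 bp downstream, and 27.1 and 25.3 per Mb at 1000 to 2000 bp upstream and downstream. The ratio differed with the surroundings. Inside protein-coding gene bodies it was 2.03 (32.9 per Mb for members, 16.2 per Mb for other distal summits), and outside them it was 7.18 (73.5 per Mb for members, 10.2 per Mb for other distal summits). Counts of peaks give no replicate spread, so these densities are descriptions of the list.

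**Figure D1:**
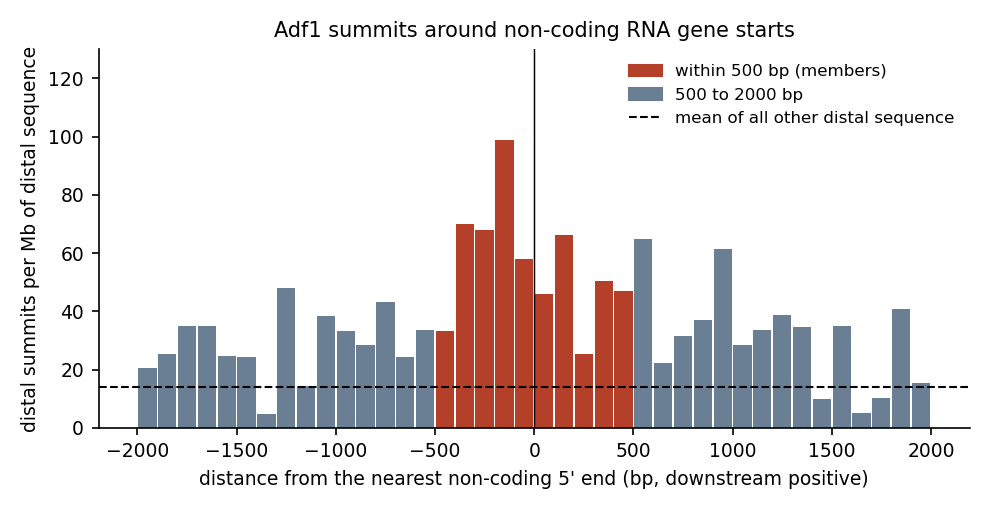
Distal Adf1 summits per Mb of distal sequence (y axis) by distance in bp from the nearest non-coding 5' end (x axis, downstream positive, bins of 100 bp), with the members in red and the summits at 500 to 2000 bp in grey-blue. The highest bar, 98.8 per Mb, is 100 to 200 bp upstream, and the dashed line is the mean of the distal sequence over 500 bp away, 14.1 per Mb.

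By position, 75 members lay upstream of their nearest non-coding 5' end and 57 at or downstream of it, an upstream share of 56.8% (Wilson interval 48.3 to 65.0%). The median distance was 199.5 bp, with 82 members within 250 bp and 27 within 100 bp. For 98 of the 132 members the nearest non-coding start lay outside protein-coding genes. For 26 it was inside one on the opposite strand and for 8 inside one on the same strand. A start with several members was counted once per member, and overlap with other non-coding genes was not counted. Of members, 33 of 132 lay in a protein-coding gene body, against 1270 of 1694 other distal summits, a difference of -50.0 percentage points (Newcombe 95% interval -56.9 to -41.7). Such bodies cover 42.7% of the sequence near non-coding starts and 65.4% of the rest. The members' share was below that of their sequence, while that of other distal summits was above it. Members were also farther from protein-coding genes, with a median of 3974 bp to the nearest TSS (95% interval of the median 3159 to 4852 bp), against 2382 bp (2220 to 2603 bp) for other distal summits. The nearest protein-coding gene was a listed developmental regulator for 8.33% of members and 8.80% of other distal summits, a difference of -0.46 percentage points (-4.36 to 5.64).

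Of 3023 non-coding genes whose surroundings could hold a member, 116 (3.84%) had at least 1 within 500 bp. By class, these were 94 of 1911 lncRNA genes (4.92%, Wilson interval 4.04 to 5.98%), 10 of 466 antisense RNA genes (2.15%, 1.17 to 3.90%), 8 of 254 microRNA hairpin genes (3.15%), 2 of 32 small nuclear RNA (snRNA) genes, 2 of 267 small nucleolar RNA (snoRNA) genes and 0 of 93 others. The intervals of the lncRNA and antisense shares did not overlap. A gene could hold a member if any position within 500 bp of its start was distal. The amount of distal sequence per gene could thus differ between classes, and its part in these shares was not tested. By nearest gene, 110 members lay at lncRNAs, 12 at antisense RNAs, 7 at microRNAs and 3 at snRNAs. A total of 21 genes had more than 1 member, at most 3.

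Host genes held members more often than other non-coding genes. Of 37 lncRNA and antisense genes that carry a microRNA hairpin on the same strand, 14 had a member (37.8%, 24.1 to 53.9%), against 90 of 2433 other lncRNA, antisense and unclassified non-coding genes (3.70%, 3.02 to 4.53%). This grouping was chosen after the members had been seen, so the difference is a description. The 14 hosts held 16 members with signals of 57.2 to 2916 and a median of 497, against 15.2 to 2852 and a median of 167 for the other 116 members. Both replicates' own lists held 15 of the 16 host members (93.8%), against 83 of the 116 others (71.6%). Of the 16, 11 lay upstream of the host's start, against 64 of the 116 others. The median distance to the start was 125 bp, against 217.5 bp for the others. The hosts' starts were remote from protein-coding genes, with a median of 10158 bp from summit to nearest TSS, against 3706 bp for the other members. Over 18 pairs of a summit and a hairpin, the hairpin began 74 to 13942 bp downstream of the summit, with a median of 2705 bp. Closeness to the host's start is what the rule selected, and summits elsewhere in the hosts were not counted here. Host genes were long, with a median of 6117 bp for the 14 with a member and 6436 bp for the 23 without, against 782 bp for all lncRNA genes with a member and 658 bp for those without. The part of gene length in the host share was not tested.

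The strongest member of all was at CR43334, the host of bantam, with its summit 169 bp upstream of the start at chr3L position 628266. Its signal was 2916 in the list across replicates, 810 in replicate 1 and 2095 in replicate 2, and it ranked 7th among distal summits. The hairpin lay 13942 bp downstream of the summit. The next hosts in order were CR43651, which carries mir-14, a suppressor of cell death, and CR43650, which carries mir-8, a regulator of growth. At CR43651 the signal was 1366, with 470 in replicate 1 and 906 in replicate 2, 123 bp upstream of the start. At CR43650 it was 1110, with 438 in replicate 1 and 679 in replicate 2, 142 bp upstream, while a distal summit inside that host, 847 bp upstream of the mir-8 hairpin and no member, had the higher signal of 1793. The members at both hosts were in both lists.

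The hosts of mir-124, mir-9a and mir-275 came after these. At CR45919 (mir-124) the signal was 975, with 223 in replicate 1 and 752 in replicate 2, and the summit was 183 bp upstream. At CR45916 (mir-9a) the stronger summit had 689, with 193 in replicate 1 and 497 in replicate 2, 165 bp upstream, and a second lay 48 bp downstream with 57.2. At CR43857 (mir-275) the signal was 677, with 155 in replicate 1 and 512 in replicate 2, 107 bp upstream. Over all 127 members with a value in both ranked lists, replicate 2 had the higher value in 116, and the lists have no stated common scale. This was no trait of members alone. The median of other distal summits was 98.5 in replicate 2 and 59.9 in replicate 1, and that of members was 140 and 75.5. In the Hox complexes, iab4 had a summit 123 bp downstream of its start with 603 (250 in replicate 1, 361 in replicate 2), and CR42651, which carries mir-10 and lies 24542 bp from Dfd, had one 1 bp downstream of its start with 392 (124 in replicate 1, 271 in replicate 2). At CR31044 (mir-279 and mir-996) the signal was 511, with 236 in replicate 1 and 282 in replicate 2. The remaining hosts were CR45347 (mir-4973, 483), CR46004 (mir-276b, 420 and 166), CR43459 (mir-277 and mir-34, 139), CR45910 (mir-1000, 132) and CR43626 (mir-282, 87.2). The summit at CR45910 was the one host member outside replicate 1's own list.

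**Figure D2:**
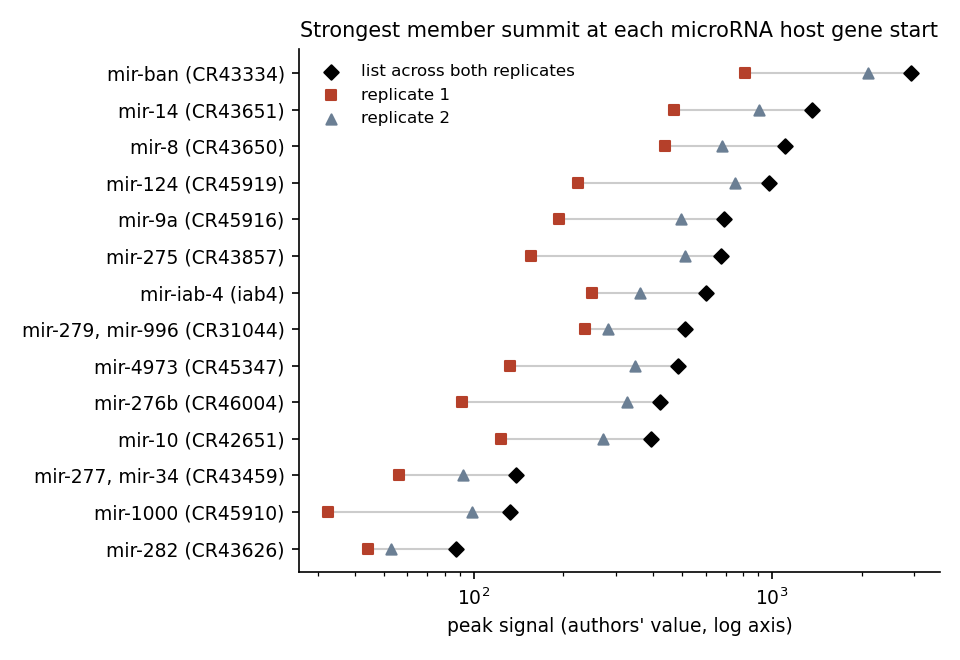
Peak signal (x axis, the authors' value, log axis) of the strongest member at each of the 14 microRNA host genes (y axis), with a diamond for the list across replicates, a square for replicate 1 and a triangle for replicate 2. Values run from 87.2 at the host of mir-282 to 2916 at the host of bantam, and replicate 1 is below replicate 2 at all 14 hosts.

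The 23 hosts without a member had their nearest summit 949 to 56287 bp from the start, with a median of 8020 bp. In 3 of them it was within 2000 bp, namely in the hosts of mir-31b (949 bp), mir-92b (1656 bp) and mir-276a (1872 bp). The host of mir-1, a muscle microRNA, had none within 55363 bp, and let7C, which carries mir-let7, mir-100 and mir-125, none within 12440 bp. The host iab8, transcribed from the strand opposite iab4, had its nearest summit 2610 bp from the start and 10 summits inside its long gene. Carrying a hairpin did not go with a member at every host.

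By nearest gene, 7 members lay at the hairpin genes themselves, with a median signal of 159, against 148 for other distal summits. The strongest was at mir-4962, inside the kinase gene Tlk, with a signal of 1504 (586 in replicate 1, 911 in replicate 2). Its summit was 85 bp downstream of the hairpin's start. mir-9377, inside Tis11, had 2 summits with signals of 235 and 15.2. The others were mir-4978 inside mam (170), mir-275 (159), mir-969 (133) and mir-34 (97.7), of which mir-4978 and mir-34 were not in replicate 1's own list. The loci of mir-275 and mir-34 each held a member at the hairpin besides the one at the host's start, and at mir-275 the host's summit was the stronger (677 against 159). mir-1000 and mir-4973 were also within 500 bp of a member, which was the one at their host's start.

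Of the snRNA genes, 7SKa, whose RNA holds the elongation factor P-TEFb inactive, had a summit 185 bp downstream of its start with a signal of 273 (63.3 in replicate 1, 209 in replicate 2). U1:95Ca, a copy of the gene for U1, which pairs with the 5' splice site, had 2 members with signals of 113 and 24.3, neither in replicate 1's own list. U1 genes have near-identical copies, so reads at U1:95Ca may be shared with them, and how such reads were treated is not given in the sources used here. No member had a snoRNA as its nearest gene, but the member at Uhg4, a snoRNA host gene, was within 500 bp of 2 snoRNA genes, with a signal of 255 (82.8 in replicate 1, 169 in replicate 2). That was 1 of 10 snoRNA hosts.

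Among other lncRNAs, the highest signals were at CR45899, 1720 bp from the Hox gene Antp (2852, with 1190 in replicate 1 and 1663 in replicate 2), and at CR44933 (2400, with 812 in replicate 1 and 1598 in replicate 2). The summits were 456 bp downstream and 487 bp upstream of the starts, so both were near the edge of the 500 bp window. CR45267 had 973, CR45354 had 927, marge had 806, CR44619 had 770 and CR45541, near the hexokinase gene Hex-A, had 750. CR45607, 2090 bp from the JAK/STAT ligand gene upd2, had 651, CR44339, 4162 bp from the Polycomb group gene Psc, had 642, and CR46322 had 575. All 26 members with a signal of 500 or more were in both replicates' lists. The other distal summits at that signal were also all in both lists. Among summits at or above their own set's median signal (179 for members, 148 for others), both lists held 98.5% of members and 91.4% of other distal summits. Below these medians both lists held 50% and 42.4%. The cut was thus higher for members. In the stronger part of the list, with 1 cut for all summits, the difference was 3.58 points (-3.54 to 6.83) for replicate 1's list. For replicate 2's list it was -0.57 points (-6.29 to 0.79). Of 20 lncRNAs and other RNAs listed as known by function, 3 had a member: iab4, marge and acal, a regulator of JNK signalling (133, with 30.4 in replicate 1 and 99.1 in replicate 2). The dosage compensation RNAs roX1 and roX2, the heat shock RNA Hsromega and bxd had no summit within 500 bp.

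Antisense members had signals of 47.2 to 1109 with a median of 123, and 11 of the 12 lay upstream of the antisense RNA's start. The strongest were at CR44873 inside Ndf (1109, with 412 in replicate 1 and 683 in replicate 2), at CR45281 (938, with 219 in replicate 1 and 719 in replicate 2) and at CR44866 inside CycE, the gene for cyclin E (632, with 266 in replicate 1 and 377 in replicate 2). ChIP-seq has no strand, so at summits inside a protein-coding gene, such as those in Ndf and CycE, binding cannot be assigned to the antisense RNA or to that gene. The summit at CR45281 lay in no protein-coding gene body.

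**Figure D3:**
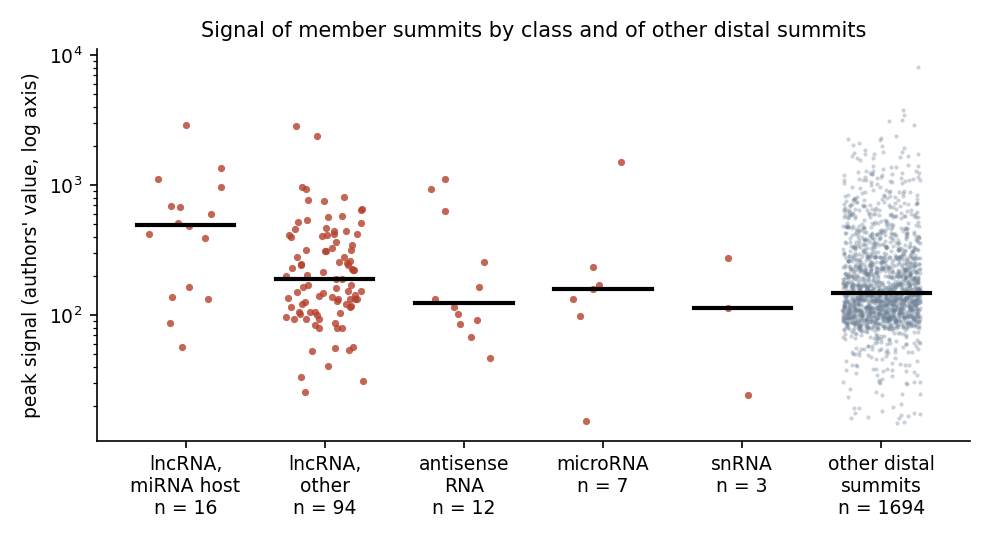
Peak signal (y axis, the authors' value, log axis) of each member by class of its nearest gene and of other distal summits (x axis), with a line at each median. The 16 members at microRNA hosts have a median of 497, against 148 for the 1694 other distal summits, and every class has members below 120.

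As a whole, members had a median signal of 179 (95% interval of the median 149 to 245), against 148 (143 to 154) for other distal summits. The authors' signal has no stated scale and is used here to rank peaks within a list. A signal of 273 or more, the 75th percentile of distal summits, was found for 36.4% of members and 24.1% of other distal summits, a difference of 12.2 percentage points (Newcombe interval 4.23 to 20.9). Of the 100 strongest distal summits, 12 were members. Members were more often in intervals with several summits (21.2% against 13.0%, a difference of 8.23 points, 1.89 to 16.1). The score, on which 1000 is the maximum, was at that maximum for 79.5% of members and 78.2% of other distal summits.

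Replicate 1's own list held 100 members (75.8%), against 69.8% of other distal summits, a difference of 5.98 percentage points (Newcombe interval -2.27 to 12.9). Replicate 2's own list held 128 members (97.0%), against 92.8%, a difference of 4.17 points (-0.47 to 6.45). Both lists held 98 (74.2%), against 66.9%. All 3 shares were higher in members, but the intervals of the differences included 0 (-1.01 to 14.4 points for both lists). These intervals depended on the setting. The difference for replicate 2's list was 6.03 points (1.00 to 9.25) in the optimal list. In the stronger part of the list by signal it was -0.57 points (-6.29 to 0.79). With summits required to lie within 100 bp it was -0.30 points (-7.25 to 4.66). The difference for replicate 1's list was 9.48 points (1.94 to 16.6) in replicate 2's own list. The 30 members held by replicate 2's list and not by replicate 1's had signals of 24.3 to 170, at the lower end of the members. Signals in the 2 replicates' ranked lists had a Spearman rho of 0.76 over 127 members and 0.68 over 1659 other distal summits, as a description across peaks that share the same libraries. For 20 members the nearest replicate 1 summit was shared with another member, and for 12 this was so in replicate 2, so close pairs were not separated there.

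**Figure D4:**
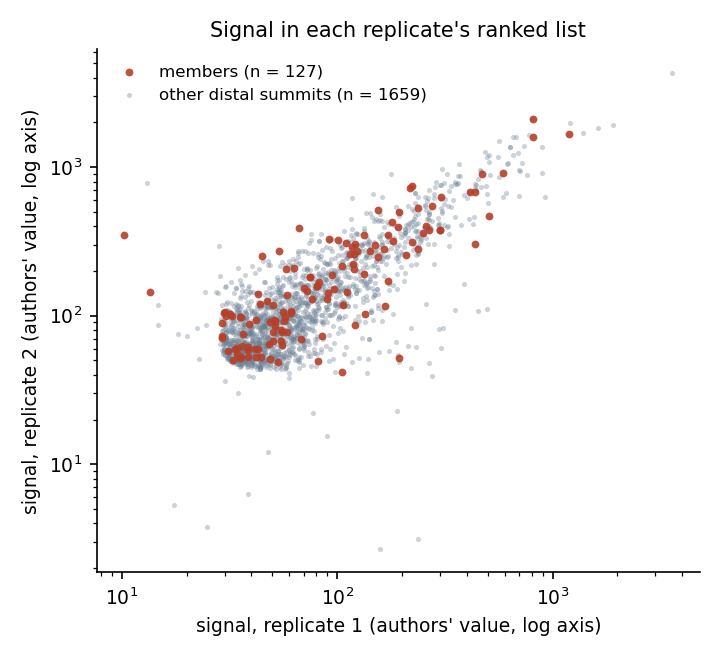
Signal in replicate 2 (y axis) against signal in replicate 1 (x axis), both the authors' values on log axes, for 127 members in red and 1659 other distal summits in grey-blue. The members run along the same diagonal as the other summits, and 116 of 127 have the higher value in replicate 2. Other distal summits also have the higher median in replicate 2, 98.5 against 59.9 in replicate 1.

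The GC triplet GCNGCNG was present within 50 bp of the summit in 53 members (40.2%), against 33.8% of other distal summits, a difference of 6.39 percentage points (Newcombe interval -1.91 to 15.2). With windows of 25 and of 100 bp either side the difference was 7.54 points (0.22 to 16.0) and 8.91 points (0.06 to 17.3). It was smaller in other lists: 1.35 points (-5.64 to 9.05) in the optimal list and 1.57 (-9.51 to 13.2) in the stronger part by signal. In each replicate's own list it was 2.11 to 2.35 points, and these intervals also included 0. In windows as long as the main one, 500 bp to either side, the GC triplet was present in 17.0% for members and 13.8% for other distal summits. It was thus more frequent under the summit than beside it in both sets. The CG triplet CGNCGNC was present in 31.8% of members and 32.1% of other distal summits, and either form in 53.0% and 45.9%. Of the 16 host members, 8 had the GC triplet and 11 either form. Among the stronger members, at or above their median signal, 45.5% had the GC triplet, against 34.8% of the weaker. For the other distal summits these shares were 42.6% and 24.9%. The other motifs searched on both strands were GAGAG, the GAGA factor motif (24.2% of members, 23.3% of other distal summits), GCCAT of the Polycomb group protein Pho (21.2%, 18.0%), CAGGTA of the early activator Zelda (3.03%, 1.48%), the DNA replication element TATCGATA (0 members, 0.18%) and the repeat GTGTGT (9.85%, 14.5%). For each of these motifs the interval of the difference included 0. The windows of members had a median GC content of 52.5% (49.5 to 55.4%), against 48.5% (48.5 to 49.5%), and the part of base composition in the triplet shares was not tested.

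**Figure D5:**
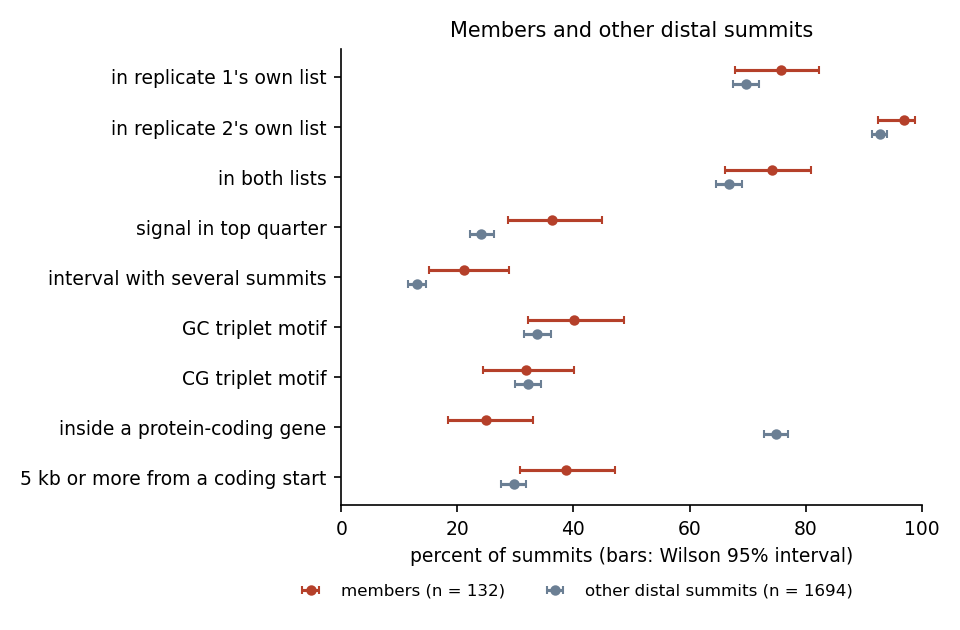
Percent of summits (x axis) with each property (y axis) for 132 members in red and 1694 other distal summits in grey-blue, with Wilson 95% intervals for counting error. The sets are farthest apart for position inside a protein-coding gene, 33 of 132 members against 1270 of 1694, and overlap for both triplet forms.

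The 500 bp limits cut through a continuum. Just inside the limit to the non-coding start were members at CR46113 (497 bp, signal 126), CR44339 (496 bp, 310) and CR45355 (495 bp, 565), and just outside were summits 504 bp from CR43411 (152), 514 bp from CR44409 (121) and 521 bp from CR46036 (172). At the limit to the protein-coding start, the nearest members were at CR44866 (503 bp from CycE, 632), CR44498 (510 bp from CG4766, 155) and CR43889 (511 bp from Su(Tpl), 85.5). Summits left out there lay 472 bp from raptor (326), 471 bp from CG2182 (109) and 454 bp from prtp (197). Of the 132 members, 12 had a signal under 60, and 7 of these shared an interval with another summit. Of the 1694 other distal summits, 81 had a signal under 60, and 28 of these shared an interval. Among arms, 3R held 32 members (24.2%, against 20.2% of other distal summits) and 2R held 29 (22.0%, against 17.1%). Arms 3L and X held 24 each (18.2%), against 20.8% and 25.3%, and 2L held 23 (17.4%, against 16.1%). The largest difference was on X, -7.14 percentage points (Newcombe interval -13.2 to 0.57), and on every arm the interval included 0. Chromosome 4 held 0 members, where a floor of 3 counts of the 132 allows a share of up to 2.27%. It held 6 of the 1694 other distal summits (0.35%).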

How the data were processed

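ChIP-seq peaks of Adf1-eGFP in embryos were taken from the deposited lists on Release 6 (dm6): 1 list called across both replicates at the conservative threshold, the optimal list, and a thresholded and a ranked list for each replicate. Per the file lists deposited with them, peaks were filtered on the irreproducible discovery rate. The signal of each peak and its score are the authors' values as deposited; the score runs up to 1000 and its minimum in the list used was 830. Which aligner and caller made them is not given in the sources used here. No reads or read totals were used, so depth is unknown, and intervals cover counting error only.

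Genes came from Ensembl BDGP6.54, release 115, and sequences from the RefSeq copy of the same assembly, in which all 109 nearest genes had identical coordinates. In this annotation microRNA hairpins carry the gene biotype ncRNA and were classed by transcript biotype. Replicate values are those of the nearest summit within 250 bp in each ranked list. Overlap was at least 1 bp. Motifs were searched within 50 bp of the summit on both strands. Wilson and Newcombe intervals were computed with Python 3.11.15 and NumPy 2.4.6, and the code was tested on simulated data. Peaks are not replicates, so no test was run over them.

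Named members were all those at microRNA, snoRNA and snRNA genes, the 20 of highest signal at other non-coding genes, those in a list of known lncRNAs, and the 3 nearest to each side of each limit. The members and lists were chosen with earlier results of these data known, and the microRNA hosts and the CG triplet after their values were seen. Columns pairing replicates in the ranked lists of the whole series were not used.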

Additional observations from a re-analysis of the deposited data

How the results depend on the processing

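The counts, shares, median signal and differences named here were recomputed under other lists and distances, the differences for replicate lists also with another overlap rule, and the triplet difference with other windows. Other results in the text have no alternative. The number of members was 82 with a limit of 250 bp to the non-coding start, 214 with 1000 bp and 77 in the stronger part of the list by signal; the genes with a member were 77, 186 and 74. The share of distal summits was 4.49% at 250 bp and 11.7% at 1000 bp. The median signal was 140 in the optimal list and 392 in the stronger part; each replicate's own list, which leaves out the other replicate, gave 92.4 to 95.8, on a scale of its own. Those lists gave 98 to 181 members, 91 to 164 genes with a member, 6.96 to 7.49% of distal summits, 54.7 to 57.1% upstream, and a triplet difference of 2.11 to 2.35 percentage points. With replicate 1's own list the difference for replicate 2's list was 3.32 points, and with replicate 2's own list that for replicate 1's was 9.48 (1.94 to 16.6); the reverse has no value, since a list overlaps itself. The difference for replicate 2's list was -0.57 points in the stronger part and -0.30 points when summits had to lie within 100 bp. It was 5.95 (0.46 to 7.60) at 250 bp, 4.45 (0.12 to 6.62) with transcript 5' ends and 6.03 (1.00 to 9.25) in the optimal list, intervals that exclude 0, unlike the main one. The triplet difference was 7.54 and 8.91 points with windows of 25 and 100 bp, whose intervals also exclude 0. It was 1.35 in the optimal list and 1.57 in the stronger part. Alternatives chosen after the data were seen were the host count, which was 13 in replicate 1's own list, 18 in replicate 2's and 11 in the stronger part, the density ratio, 3.47 to 4.73, and either triplet form, 7.16 points. No paired analysis was possible because the study has 1 group. Unknown depth and 2 replicates limit what the lists can show.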
